A study of Mus musculus with 4 samples.

Results

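The genes described here are 35 proliferation and cell cycle genes, 11 that act in S phase and 24 that act in mitosis, as they were read in the visceral fat of mice whose insulin signalling defect lies in the liver. They were chosen by name, with no measured value in the rule, and a gene was read from the brightest probe that carries only its symbol. Of the 35 genes, 34 were measured among 22180 genes on the arrays: all 11 S phase genes and 23 mitotic genes. Cyclin B1 (Ccnb1) is not analysed here. RNA came from the epigonadal white adipose tissue of fasted male mice, with 1 Affymetrix whole-transcript array for each of 4 genotypes. LDKO mice carry floxed Irs1 and Irs2 with Albumin-Cre and were 4 months old, and their control, called the Irs1/2-flox control, carries the same floxed genes without Cre. LTKO mice carry floxed Irs1, Irs2 and FoxO1 with Albumin-Cre and were 4 months old, and their control, called the Irs1/2:FoxO1-flox control, carries those 3 floxed genes without Cre. Albumin-Cre acts in hepatocytes, so the design deletes the genes in liver and leaves them in fat, and all 4 groups carry floxed Irs1 and Irs2. The labels give no age for the controls and do not say whether an array holds 1 mouse or a pool. Values are log2 signals, 1 unit being 2-fold, and differences are knockout minus its own control unless another pair is named. Since each group is a single array, differences are given without a test, a standard error or a replicate check, and precision is limited by there being 4 arrays in all.

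Most cells of adult fat are out of the cell cycle, and mature adipocytes do not divide as a rule. Dividing cells of the pad are mainly progenitors, endothelial cells and immune cells. Entry into S phase needs E2F transcription factors, which switch on the genes that copy DNA: the MCM helicase, the clamp Pcna and the enzymes that make deoxynucleotides. The mitotic genes come on later, through promoters with CCAAT boxes and an element called CHR, on which the DREAM complex acts in resting cells and B-Myb and FoxM1 act in dividing cells. RNA of most of these genes is scarce in resting cells. Fewer dividing cells and less RNA per dividing cell cannot be told apart in such bulk samples.

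The promoters of 5 of these genes are shown to place the elements by which such genes are known to be switched on together. Top2a and Mki67 are mitotic markers, Mcm2 and Pcna S phase markers, and Mcm7 was the S phase gene with the largest difference in LDKO fat. Each run is the 250 bases before an annotated start in GRCm38.p6 from RefSeq. Runs read 5′ to 3′ on the gene's own strand, which is the minus strand for all 5. For Top2a, Mki67 and Mcm7 the annotated gene reaches past that start, to 99024199, 135716450 and 138172111 on their chromosomes. Their runs therefore overlap the gene. Capitals mark the CHR core TTTGAA, the CCAAT box CCAAT, and the E2F letters TTGGCGC or TTCCCGC, each on either strand, so that a reversed CCAAT box reads ATTGG. The end of a reversed CCAAT box can also be the start of an E2F match. Top2a lies at chr11:99024190-99024439, Mki67 at chr7:135716380-135716629, Mcm2 at chr6:88898781-88899030, Pcna at chr2:132253181-132253430 and Mcm7, which has 2 annotated windows of which the first is shown, at chr5:138171884-138172133.
Top2a: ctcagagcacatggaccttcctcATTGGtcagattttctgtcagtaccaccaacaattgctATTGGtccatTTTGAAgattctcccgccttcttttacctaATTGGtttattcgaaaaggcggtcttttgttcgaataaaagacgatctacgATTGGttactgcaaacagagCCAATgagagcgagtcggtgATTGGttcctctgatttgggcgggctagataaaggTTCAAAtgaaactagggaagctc
Mki67: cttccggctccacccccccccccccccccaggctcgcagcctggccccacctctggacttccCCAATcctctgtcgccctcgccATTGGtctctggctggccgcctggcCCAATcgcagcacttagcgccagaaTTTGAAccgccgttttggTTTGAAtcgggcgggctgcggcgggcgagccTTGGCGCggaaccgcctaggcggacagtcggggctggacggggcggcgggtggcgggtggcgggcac
Mcm2: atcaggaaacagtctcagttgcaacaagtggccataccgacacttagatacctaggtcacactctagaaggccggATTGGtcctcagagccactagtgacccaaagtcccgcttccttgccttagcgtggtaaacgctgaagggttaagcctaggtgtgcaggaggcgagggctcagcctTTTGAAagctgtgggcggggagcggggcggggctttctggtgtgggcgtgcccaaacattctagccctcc
Pcna: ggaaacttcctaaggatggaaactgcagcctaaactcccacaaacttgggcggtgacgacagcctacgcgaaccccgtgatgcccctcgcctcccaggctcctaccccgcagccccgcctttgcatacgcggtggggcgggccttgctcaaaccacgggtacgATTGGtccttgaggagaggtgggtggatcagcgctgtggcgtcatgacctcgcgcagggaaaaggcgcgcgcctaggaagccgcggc
Mcm7: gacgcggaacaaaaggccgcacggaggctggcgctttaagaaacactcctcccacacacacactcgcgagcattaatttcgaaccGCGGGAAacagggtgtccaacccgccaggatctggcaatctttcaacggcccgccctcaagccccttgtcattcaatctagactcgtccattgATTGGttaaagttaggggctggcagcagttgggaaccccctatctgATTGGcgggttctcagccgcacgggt
In these runs Top2a holds 6 CCAAT boxes and 2 CHR cores, and Mki67 holds 3 CCAAT boxes, 2 CHR cores and 1 E2F match. Mcm2 holds 1 CCAAT box and 1 CHR core, Pcna 1 CCAAT box, and Mcm7 2 CCAAT boxes and 1 E2F match. RefSeq windows of 300 bases, from 250 before to 50 after the start, were on hand for 30 of the 35 genes. The CHR core was in the windows of 14 of 20 mitotic genes and 1 of 10 S phase genes, against 20.2% of 27025 genes with a window. CCAAT boxes were in 17 of 20 mitotic and 8 of 10 S phase windows, against 41.1% of all genes. E2F letters were in 3 of 20 mitotic and 5 of 10 S phase windows, against 7.79% of all genes. A match of letters is a description and not a bound site. The measured mitotic genes with a CHR core had a median difference of 0.15 in LDKO fat and −0.13 in LTKO fat, and those with none in the window had 0.069 in LDKO fat and −0.18 in LTKO fat.

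Signals of these genes were low in all 4 arrays. Only 9 of the 34 genes averaged at or above the median gene (5.15), 6 of them S phase genes and 3 mitotic genes. A gauge of unspecific signal came from 21 testis and germ cell genes, which averaged a median of 3.89 over the LDKO array and both controls, with an upper quartile of 4.57. Of the 34 genes, 3 averaged at or below that median and 12 at or below that upper quartile. Signals of different probes depend on the probes and do not rank the genes by RNA amount, and the RMA method compresses differences of dim probes. The adipocyte markers averaged between 10.72 and 10.96 in the 4 arrays, with Adipoq and Plin1 among them, as the label of the tissue says. Pairs of arrays had Pearson's r from 0.986 to 0.991 across genes. The Irs1/2-flox control array stood apart by its skeletal muscle and mesothelial markers, and the LTKO array by genes of epididymis, germ cells and liver, whose values are given beside the cell type lists.

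No S phase or mitotic gene was 1.5-fold apart between LDKO fat and its control or between LTKO fat and its control. Among all genes 4.44% were 1.5-fold apart in the LDKO comparison and 3.96% in the LTKO comparison. Differences of the 34 genes ran from −0.41 (Mcm7) to 0.46 (Top2a) in LDKO fat and from −0.41 (Aurkb) to 0.30 (Tyms) in LTKO fat, all inside the 1.5-fold threshold of 0.58. Across the 4 arrays the median gene of the 34 had a range of 0.32, the same as the median of all 22180 genes. The spindle checkpoint gene Bub1b alone reached 1.5-fold between its highest and lowest array, with a range of 0.66, and 13.8% of all genes did.

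The small differences put the arrays in an order. The Irs1/2:FoxO1-flox control held the highest value of 17 of the 34 genes, against 26.3% of all genes, and the lowest value of 2, against 23.3%. LDKO fat held the highest value of 9 and the lowest of 9, LTKO fat the highest of 6 and the lowest of 13, and the Irs1/2-flox control the highest of 2 and the lowest of 10. For all genes these shares were 28.6% and 28% in LDKO fat, 21.7% and 25% in LTKO fat, and 23.4% and 23.7% in the Irs1/2-flox control. The mitotic genes carried this order, since 13 of the 23 were highest in the Irs1/2:FoxO1-flox control, 8 in LDKO fat, 2 in LTKO fat and none in the Irs1/2-flox control. Their mean level was 4.53 in LDKO fat and 4.45 in the Irs1/2-flox control, and 4.45 in LTKO fat and 4.60 in the Irs1/2:FoxO1-flox control. S phase genes averaged 5.43 in LDKO fat and 5.52 in the Irs1/2-flox control, and 5.57 in LTKO fat and 5.64 in the Irs1/2:FoxO1-flox control.

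**Figure D1:**
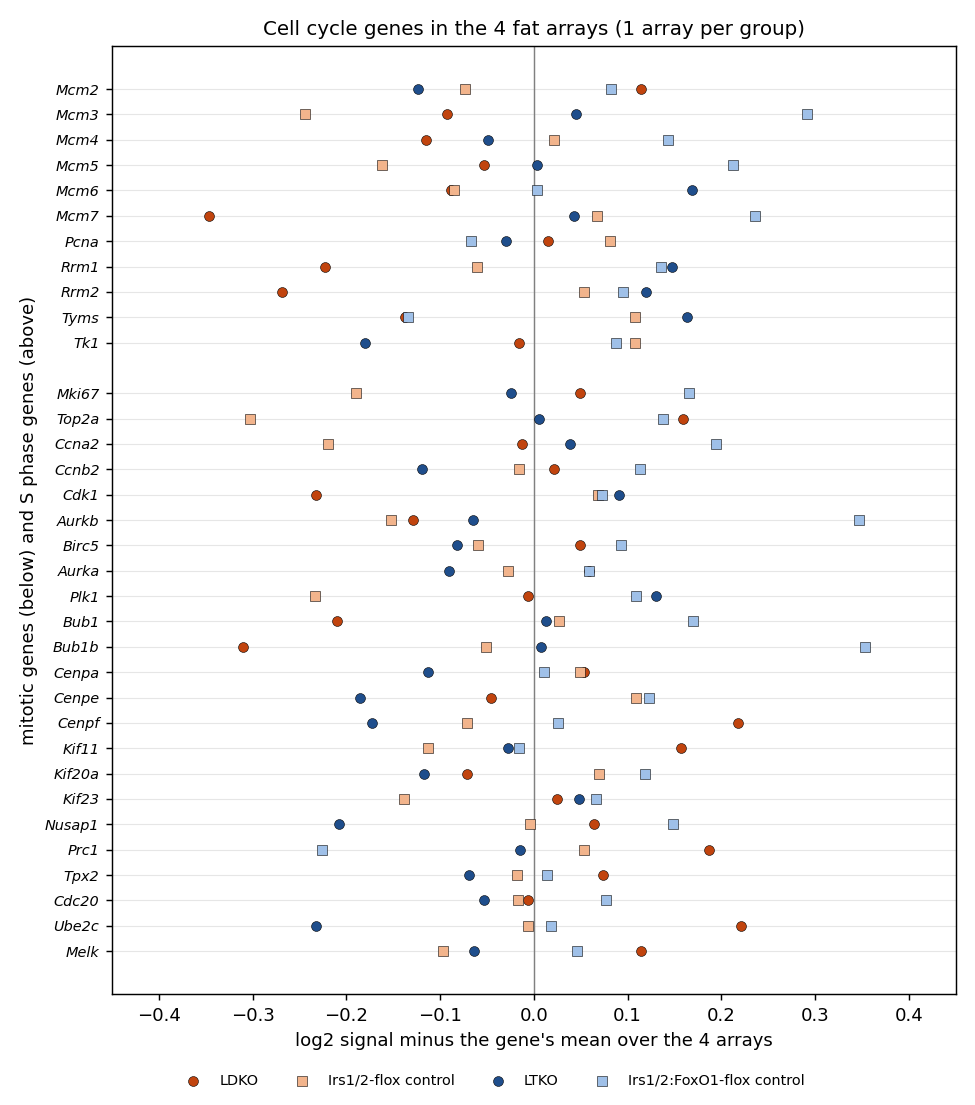
Log2 signal of each measured cell cycle gene minus its mean over the 4 arrays, with 1 point per array (LDKO and LTKO as circles, controls as squares); points that coincide hide one another, as for Aurka. The pale blue squares of the Irs1/2:FoxO1-flox control lie farthest right for 17 of the 34 genes, and no gene except Bub1b spans 1.5-fold.

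In LDKO fat the S phase genes leaned low and the mitotic genes leaned high. Of 11 S phase genes 8 were lower and 3 higher than in the Irs1/2-flox control, with a median of −0.12, where 49.7% of all genes were lower and the median of all genes was 0.00094. Of 23 mitotic genes 18 were higher and 5 lower, with a median of 0.093, where 50.1% of all genes and 57.8% of the genes below the median gene were higher. In LTKO fat the mitotic genes leaned low, with 20 of 23 lower and a median of −0.16. The S phase genes were split there, with 6 of 11 lower and 5 higher and a median of −0.19. In that comparison 54.3% of all genes and 50.4% of those below the median gene were lower, 45.6% of all genes were higher, and the median of all genes was −0.021.

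Both leanings of the mitotic genes depended on which control was used. Set against the Irs1/2:FoxO1-flox control, 8 of 23 mitotic genes were higher in LDKO fat (median −0.083), where 50.3% of all genes and 61.6% of those below the median gene were higher. Set against the Irs1/2-flox control, 13 of 23 were lower in LTKO fat (median −0.022), where 50.8% of all genes and 53% of those below the median gene were lower. The S phase genes leaned low in LDKO fat with the other control too, with 9 of 11 lower and a median of −0.26, where 49.7% of all genes were lower. In LTKO fat 5 of 11 S phase genes were lower than in the Irs1/2-flox control, with a median of 0.055. Comparisons of 1 knockout with either control share the knockout's array.

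**Figure D2:**
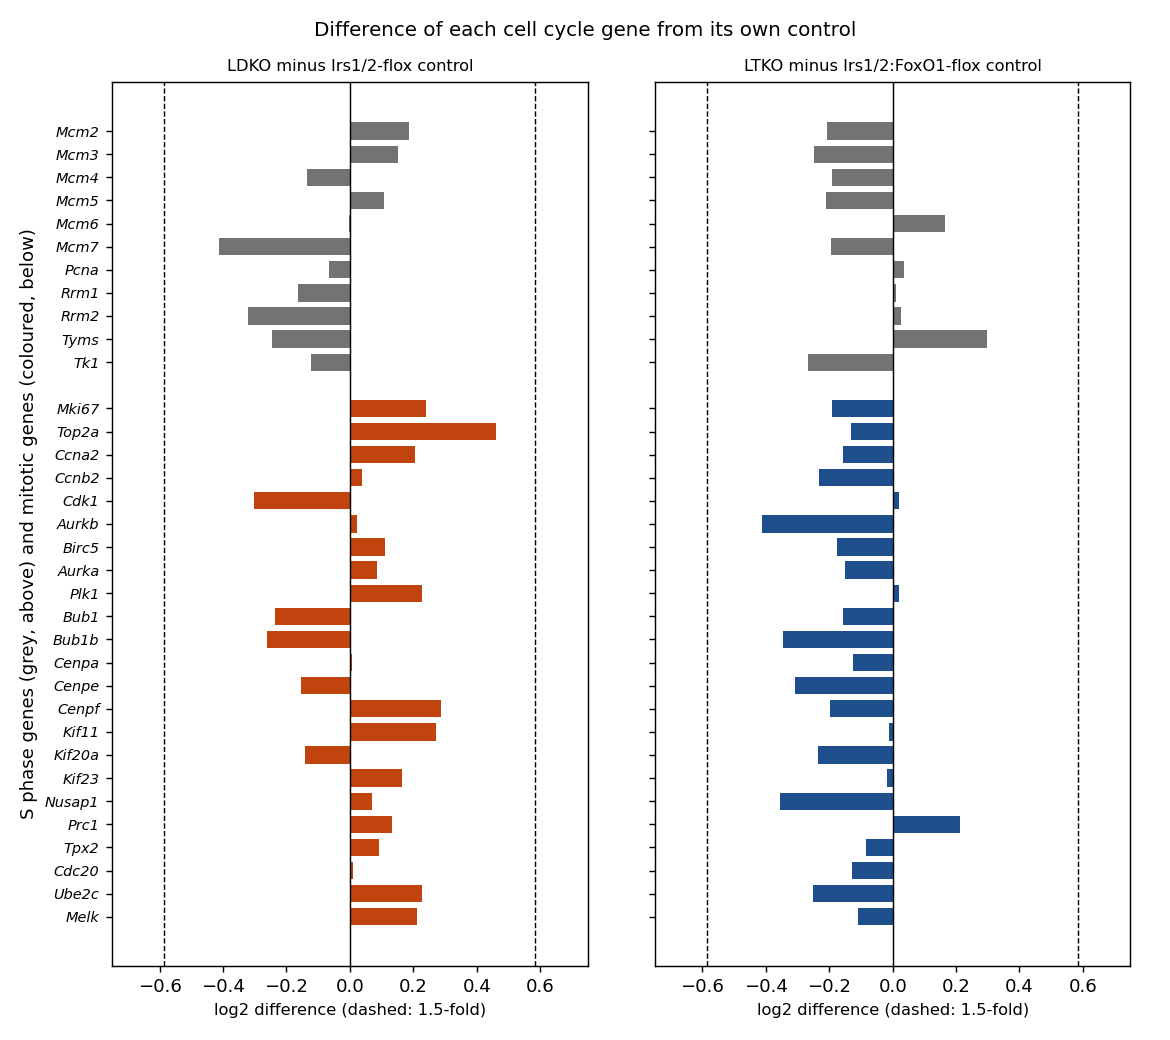
Log2 difference of each cell cycle gene in LDKO fat (left) and LTKO fat (right) from its own control, 1 array per group, with S phase genes in grey above and mitotic genes in colour below. No bar reaches the dashed 1.5-fold lines, 18 of 23 mitotic bars point right in LDKO fat and 20 of 23 point left in LTKO fat.

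The 6 subunits of the MCM helicase, which opens DNA ahead of the fork, did not move as a unit. Mcm7 was 5.996 in LDKO fat and 6.41 in the Irs1/2-flox control, and 6.39 in LTKO fat and 6.58 in the Irs1/2:FoxO1-flox control. Its LDKO value was the lowest of the 4 arrays, 0.41 below its own control and 0.58 below the other control, just short of 1.5-fold. Mcm2 was 4.79 in LDKO fat and 4.60 in the Irs1/2-flox control, and 4.55 in LTKO fat and 4.76 in the Irs1/2:FoxO1-flox control. That subunit was higher than its control by 0.19 in LDKO fat and differed by −0.21 in LTKO fat. For Mcm3 the values were 5.43 in LDKO fat and 5.28 in the Irs1/2-flox control, and 5.56 in LTKO fat and 5.81 in the Irs1/2:FoxO1-flox control. Here the controls differed from each other by 0.54, more than either knockout differed from its control (0.15 in LDKO fat and −0.25 in LTKO fat). Mcm4 differed by −0.14 in LDKO fat and −0.19 in LTKO fat, Mcm5 by 0.11 and −0.21, and Mcm6 by −0.0032 and 0.16, in the same order. Thus 3 of 6 subunits were lower in LDKO fat and 5 of 6 in LTKO fat, where 49.7% and 54.3% of all genes were lower. With the other control 5 of 6 were lower in LDKO fat and 3 of 6 in LTKO fat, against 49.7% and 50.8% of all genes. All 6 were higher in the Irs1/2:FoxO1-flox control than in the Irs1/2-flox control, as were 50.8% of all genes.

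Pcna, the sliding clamp of DNA polymerase that also serves in DNA repair, varied least of the S phase genes, with 7.95 in LDKO fat and 8.01 in the Irs1/2-flox control, and 7.90 in LTKO fat and 7.87 in the Irs1/2:FoxO1-flox control. It differed by −0.066 in LDKO fat and 0.037 in LTKO fat. Pcna, Tyms and Ccnb2 have pseudogenes of the same name in the annotation, and their part in the signal was not tested.

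The members that make deoxynucleotides, Rrm1, Rrm2, Tyms and Tk1, were on the low side in LDKO fat against the Irs1/2-flox control. Rrm1, the large subunit of ribonucleotide reductase, was 5.81 in LDKO fat and 5.98 in the Irs1/2-flox control, and 6.19 in LTKO fat and 6.17 in the Irs1/2:FoxO1-flox control. Rrm2, its S phase subunit, was 3.91 in LDKO fat and 4.23 in the Irs1/2-flox control, and 4.30 in LTKO fat and 4.27 in the Irs1/2:FoxO1-flox control. Read from the brightest probe, both were lowest in LDKO fat. Rrm1 was 0.16 and Rrm2 0.32 below the Irs1/2-flox control, and each was 0.36 below the other control. A dimmer Rrm2 probe gave −0.14 in LDKO fat and 0.16 in LTKO fat. That probe read 2.54 in LDKO fat and 2.68 in the Irs1/2-flox control, and 2.45 in LTKO fat and 2.29 in the Irs1/2:FoxO1-flox control. By it LDKO fat was not lowest but above LTKO fat and the Irs1/2:FoxO1-flox control. Thymidylate synthase, Tyms, was 5.58 in LDKO fat and 5.83 in the Irs1/2-flox control, and 5.88 in LTKO fat and 5.58 in the Irs1/2:FoxO1-flox control. It was lower in LDKO fat by 0.25 and higher in LTKO fat by 0.30, the most positive LTKO difference of the 34 genes, while LDKO fat and the Irs1/2:FoxO1-flox control had the same value to 2 decimals. Thymidine kinase, Tk1, which salvages thymidine, was 4.79 in LDKO fat and 4.92 in the Irs1/2-flox control, and 4.63 in LTKO fat and 4.90 in the Irs1/2:FoxO1-flox control. It was the S phase gene with the most negative LTKO difference, −0.27, and was lower in LTKO fat than in all 3 other arrays.

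Among the mitotic genes the markers Mki67 and Top2a were lowest in the Irs1/2-flox control. Mki67, which coats mitotic chromosomes and gives the Ki-67 antigen, was 5.87 in LDKO fat and 5.63 in the Irs1/2-flox control, and 5.79 in LTKO fat and 5.98 in the Irs1/2:FoxO1-flox control. It differed by 0.24 in LDKO fat and −0.19 in LTKO fat, and by 0.36 between the controls. Top2a, the topoisomerase that untangles replicated DNA and whose promoter with its row of CCAAT boxes is printed above, was 4.36 in LDKO fat and 3.90 in the Irs1/2-flox control, and 4.21 in LTKO fat and 4.34 in the Irs1/2:FoxO1-flox control. Its LDKO difference of 0.46 was the largest of the 34 genes, and the controls differed by 0.44, so LDKO fat and the Irs1/2:FoxO1-flox control were 0.022 apart.

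The cyclins Ccna2 and Ccnb2 were higher and their kinase Cdk1 was lower in LDKO fat than in the Irs1/2-flox control. Cdk1, which drives entry into mitosis, was 4.96 in LDKO fat and 5.26 in the Irs1/2-flox control, and 5.29 in LTKO fat and 5.27 in the Irs1/2:FoxO1-flox control. LDKO fat was 0.30 below its control, and the other 3 arrays lay close together. Ccna2, a cyclin of S phase and G2, was 4.88 in LDKO fat and 4.67 in the Irs1/2-flox control, and 4.93 in LTKO fat and 5.08 in the Irs1/2:FoxO1-flox control. It was higher by 0.21 in LDKO fat and differed by −0.16 in LTKO fat. The mitotic cyclin Ccnb2 differed by 0.038 in LDKO fat and −0.23 in LTKO fat. When the Irs1/2:FoxO1-flox control was the reference, both cyclins were lower in LDKO fat, Ccna2 by 0.21 and Ccnb2 by 0.091. Cdk1 was lower there too, by 0.30, so the opposite signs of cyclins and kinase were not seen with that reference.

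Aurka, Aurkb, Plk1, Melk and Birc5 were slightly higher in LDKO fat than in its control, and of these Plk1 alone was not lower in LTKO fat. Aurkb, the passenger complex kinase, was 4.92 in LDKO fat and 4.90 in the Irs1/2-flox control, and 4.99 in LTKO fat and 5.40 in the Irs1/2:FoxO1-flox control. Only that last array was high, 0.50 above the other control, and LTKO fat was 0.41 below it, the most negative LTKO difference of the 34 genes. Birc5 (survivin), its partner, differed by 0.11 in LDKO fat and −0.18 in LTKO fat at a signal of 2.84 at most. Aurka, a kinase of spindle poles, differed by 0.087 in LDKO fat and −0.15 in LTKO fat. Plk1, another kinase of spindle poles and kinetochores, was 4.71 in LDKO fat and 4.48 in the Irs1/2-flox control, and 4.84 in LTKO fat and 4.82 in the Irs1/2:FoxO1-flox control, lowest in the Irs1/2-flox control and close together in the rest. Melk, a kinase most abundant around mitosis, differed by 0.21 in LDKO fat and −0.11 in LTKO fat.

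Of the 5 mitotic genes lower in LDKO fat, 4 were lower in LTKO fat too. In LTKO fat 20 of all 23 mitotic genes were lower than in the control, as were 54.3% of all genes. The 4 were the spindle checkpoint genes Bub1b and Bub1, and the motor genes Cenpe and Kif20a. Bub1b, which encodes the checkpoint protein BubR1, was 4.51 in LDKO fat and 4.77 in the Irs1/2-flox control, and 4.83 in LTKO fat and 5.17 in the Irs1/2:FoxO1-flox control. It was lowest in LDKO fat, 0.26 below its own control and 0.66 below the other, and it was 0.35 below its control in LTKO fat. When LDKO fat was set against the Irs1/2:FoxO1-flox control, Bub1b was the only member 1.5-fold apart, where 4.83% of all genes were apart and 2.5% were lower. None was when LTKO fat was set against the Irs1/2-flox control, where 4.34% of all genes were apart. Bub1, the companion kinase, was 2.98 in LDKO fat and 3.22 in the Irs1/2-flox control, and 3.21 in LTKO fat and 3.37 in the Irs1/2:FoxO1-flox control, which put it 0.24 lower in LDKO fat and 0.16 lower in LTKO fat. Cenpe, the kinetochore motor, differed by −0.15 in LDKO fat and −0.31 in LTKO fat. Kif20a, a kinesin of cytokinesis, was lower by 0.14 in LDKO fat and 0.24 in LTKO fat. Against the other control Bub1b was 0.059 higher in LTKO fat, so its low LTKO value depended on the control, whereas Bub1, Cenpe and Kif20a were lower against either control in both knockouts, Bub1 by 0.014 in LTKO fat against the Irs1/2-flox control.

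The remaining mitotic genes were higher in LDKO fat, since the 5 lower ones are given above, and all but Prc1 were lower in LTKO fat. Counting Cenpe and Kif20a, 5 of 6 spindle motor or microtubule genes, 2 of 3 centromere and kinetochore genes and 0 of 2 spindle checkpoint genes were higher in LDKO fat. Of all genes 50.1% were higher, and of those below the median gene 57.8%. With the other control the counts were 3 of 6, 2 of 3 and 0 of 2, against 50.3% and 61.6%. Cenpf, a kinetochore protein of G2 and mitosis, was 4.35 in LDKO fat and 4.06 in the Irs1/2-flox control, and 3.96 in LTKO fat and 4.16 in the Irs1/2:FoxO1-flox control. Ube2c, the ubiquitin-conjugating enzyme of the anaphase-promoting complex, was 3.71 in LDKO fat and 3.48 in the Irs1/2-flox control, and 3.26 in LTKO fat and 3.51 in the Irs1/2:FoxO1-flox control. For both, as for Cenpa and Tpx2, LDKO fat was highest and LTKO fat lowest of the 4 arrays. The Ube2c difference between LTKO and LDKO fat, −0.45, was the most negative of the 34 genes. Ube2c averaged 3.49, below the germ cell median of 3.89, and Cenpf (4.13) and Tpx2 (4.55) averaged below the germ cell upper quartile of 4.57. Nusap1, a spindle microtubule protein, was 5.06 in LDKO fat and 4.99 in the Irs1/2-flox control, and 4.78 in LTKO fat and 5.14 in the Irs1/2:FoxO1-flox control, with a difference of −0.36 in LTKO fat. The kinesin Kif11, which separates spindle poles, differed by 0.27 in LDKO fat and −0.011 in LTKO fat, and Kif23, a kinesin of the midzone, by 0.16 and −0.019. Tpx2, an activator of Aurka, differed by 0.093 and −0.084, and Cdc20, an activator of the anaphase-promoting complex, by 0.010 and −0.13. Cenpa, the histone of centromeres, differed by 0.0052 and −0.12. Prc1, which bundles midzone microtubules, went its own way: it was 4.38 in LDKO fat and 4.24 in the Irs1/2-flox control, and 4.18 in LTKO fat and 3.96 in the Irs1/2:FoxO1-flox control, lowest in the Irs1/2:FoxO1-flox control, and differed by 0.13 in LDKO fat and 0.21 in LTKO fat.

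When LTKO fat was set directly against LDKO fat, the S phase and mitotic genes leaned opposite ways. Of 11 S phase genes 8 were higher in LTKO fat, with a median of 0.14, where 49.1% of all genes were higher and the median of all genes was −0.0049. Rrm2 and Mcm7 differed by 0.39 each, and Rrm1 by 0.37. The dimmer Rrm2 probe went the other way, with 2.45 in LTKO fat and 2.54 in LDKO fat. Of 23 mitotic genes 16 were lower in LTKO fat, with a median of −0.14, where 50.8% of all genes and 59.2% of those below the median gene were lower. None of the 34 genes was 1.5-fold apart, against 6.02% of all genes. This pair also differs in the floxed FoxO1 alleles.

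The controls differed from each other too, and they differ in the floxed FoxO1 alleles. The Irs1/2:FoxO1-flox control array was higher than the Irs1/2-flox control for 21 of 23 mitotic genes (median 0.13) and 8 of 11 S phase genes (median 0.12). There 50.8% of all genes and 45.8% of those below the median gene were higher. Genes of mitosis and replication outside the members, described next, did not share this lean. Of 54 other mitotic genes 24 were higher and 29 lower (median −0.020), and of 33 other replication genes 18 were higher and 15 lower (median 0.014). None of the 34 genes was 1.5-fold apart, against 3.43% of all genes. The largest differences between the controls were those of Mcm3 (0.54), Aurkb (0.50), Top2a (0.44), Ccna2 (0.41) and Bub1b (0.40).

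Further genes of replication and mitosis were taken from lists. Of 54 other mitotic genes 27 were higher and 27 lower in LDKO fat (median 0.0021), and 28 were higher and 26 lower in LTKO fat (median 0.0034). When LTKO fat was set against LDKO fat 34 of the 54 were lower (median −0.032), and 16 of the 23 mitotic members were. In that comparison 50.8% of all genes and 59.2% of those below the median gene were lower. None of the 54 was 1.5-fold higher and 1 was 1.5-fold lower in LDKO fat, against 2.01% and 2.43% of all genes, and 2 were 1.5-fold higher and none lower in LTKO fat, against 3.11% and 0.852%. The lower gene was Pttg1, the securin that holds sister chromatids together, with 5.91 in LDKO fat and 6.54 in the Irs1/2-flox control, and 5.70 in LTKO fat and 5.52 in the Irs1/2:FoxO1-flox control, so the array that stood out for Pttg1 was the Irs1/2-flox control. The 2 higher genes in LTKO fat were Ndc80, a kinetochore protein, by 0.71, and Kif2c, a kinesin that takes microtubules apart, by 0.60. Ndc80 was 3.94 in LDKO fat and 4.30 in the Irs1/2-flox control, and 4.31 in LTKO fat and 3.60 in the Irs1/2:FoxO1-flox control, so its low array was the Irs1/2:FoxO1-flox control. Among 33 other replication genes 21 were higher in LDKO fat (median 0.049) and 19 in LTKO fat (median 0.0027), with none 1.5-fold apart. Of all genes 50.1% were higher in LDKO fat and 45.6% in LTKO fat. Gins2, a subunit of the GINS complex of the helicase, was highest among them in LDKO fat at 0.51. Fen1, the flap endonuclease, was lowest in LTKO fat at −0.56, and the mean of its 2 probes gave −0.34. The Fen1 signal was 4.15 at most, below the germ cell upper quartile of 4.57. Of 7 measured replication-dependent histone genes 5 were lower in LDKO fat and 5 in LTKO fat, where 49.7% and 54.3% of all genes were lower. The histone medians were −0.095 and −0.15, on the same side of 0 as those of the S phase members. The medians of the other replication genes were on the opposite side.

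A few genes that govern the way into S phase were 1.5-fold apart in LDKO fat. Of 8 G1 cyclins and kinases 2 were 1.5-fold higher in LDKO fat and none lower, and of 7 inhibitors of cyclin-dependent kinases 1 was higher and 1 lower, against 2.01% of all genes higher and 2.43% lower. Cdkn2c, which encodes the Cdk4 and Cdk6 inhibitor p18, was 7.61 in LDKO fat and 6.39 in the Irs1/2-flox control, and 6.52 in LTKO fat and 6.80 in the Irs1/2:FoxO1-flox control. LDKO fat was above all 3 other arrays, by 1.22 from its own control and 0.81 from the other. Ccnd2, cyclin D2, was 10.55 in LDKO fat and 9.60 in the Irs1/2-flox control, and 9.65 in LTKO fat and 10.03 in the Irs1/2:FoxO1-flox control. It was likewise highest in LDKO fat, by 0.95 from its own control and 0.52 from the other. Ccne1, cyclin E1, was 5.31 in LDKO fat and 4.66 in the Irs1/2-flox control, and 5.03 in LTKO fat and 4.95 in the Irs1/2:FoxO1-flox control, highest in LDKO fat by 0.65 from its own control and 0.37 from the other. Cdkn1a, the inhibitor p21 that answers to p53, was 8.26 in LDKO fat and 9.11 in the Irs1/2-flox control, and 8.64 in LTKO fat and 8.04 in the Irs1/2:FoxO1-flox control. It differed by −0.85 in LDKO fat and 0.60 in LTKO fat, and the controls differed by −1.08, the Irs1/2-flox control being the high array. The direction turned with the other control, to 0.22 in LDKO fat and −0.47 in LTKO fat. Cdkn1a was the 1 inhibitor of 7 that was 1.5-fold apart in LTKO fat. LTKO fat differed from its control by −0.38 for Ccnd2 and −0.28 for Cdkn2c, and no G1 cyclin or kinase was 1.5-fold apart there.

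**Figure D3:**
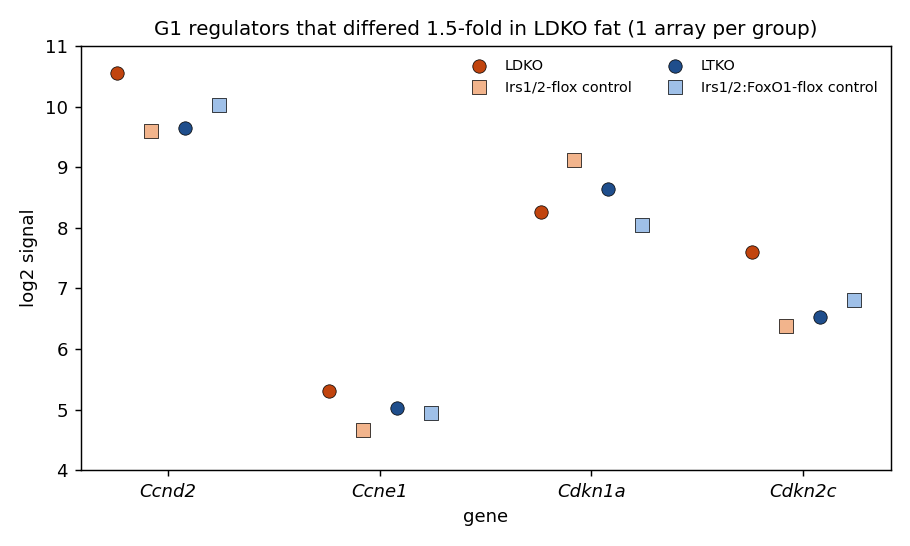
Log2 signal of Ccnd2, Ccne1, Cdkn1a and Cdkn2c, the G1 cyclins and kinase inhibitors that were 1.5-fold apart in LDKO fat, with 1 point per array. LDKO fat lies highest for Ccnd2, Ccne1 and Cdkn2c, and the Irs1/2-flox control lies highest for Cdkn1a; the axis starts at 4.

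The 19 E2F, Rb and DREAM genes, which switch the S phase and mitotic genes on and off, had none 1.5-fold apart in either knockout. In LDKO fat 6 were higher and 13 lower (median −0.029), where 49.7% of all genes were lower. Among them E2f2 was at 0.44 and E2f1 at 0.33, both activators of S phase, and the pocket protein gene Rbl2 at −0.45. In LTKO fat 16 of 19 were lower (median −0.13), where 54.3% of all genes were lower, with E2f2 at −0.37 and Lin52, a DREAM subunit, at −0.38. Against the Irs1/2-flox control 11 of 19 were lower in LTKO fat (median −0.0050), as were 50.8% of all genes. In the Irs1/2:FoxO1-flox control 17 of 19 were higher than in the Irs1/2-flox control, against 50.8% of all genes. Foxm1, the forkhead factor of mitotic genes, was 4.28 in LDKO fat and 4.31 in the Irs1/2-flox control, and 4.06 in LTKO fat and 3.79 in the Irs1/2:FoxO1-flox control. It was lowest in the Irs1/2:FoxO1-flox control, where the mitotic members had their highest mean level. All of its values were below the germ cell upper quartile of 4.57 used as a gauge of unspecific signal. The lowest of them was also below the germ cell median of 3.89.

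Some lists of cell type markers had the signs of the mitotic members when each knockout was set against its own control, and others did not. T and NK cell markers were higher in LDKO fat for 12 of 12 genes (median 0.34) and lower in LTKO fat for 9 of 12 (median −0.26), with mean levels of 4.78 in LDKO fat, 4.42 in the Irs1/2-flox control, 4.29 in LTKO fat and 4.48 in the Irs1/2:FoxO1-flox control. B and plasma cell markers were higher in LDKO fat for 8 of 8 genes (median 0.43) and lower in LTKO fat for 7 of 8 (median −0.16), with mean levels of 4.83, 4.40, 4.26 and 4.44 in the same order. Against each knockout's own control these medians had the signs of the mitotic members. In LDKO fat 50.1% of all genes and 57.8% of those below the median gene were higher, and in LTKO fat 54.3% and 50.4% were lower. With the other control the marker medians in LDKO fat did not have the sign of the mitotic median, −0.083. There 9 of 12 T and NK markers (median 0.37) and 7 of 8 B and plasma markers (median 0.22) were higher, against 50.3% of all genes and 61.6% of those below the median gene. With the other control in LTKO fat the medians were −0.12 for T and NK markers, −0.045 for B and plasma markers and −0.022 for the mitotic members. Macrophage markers were lower for 16 of 22 genes in LDKO fat (median −0.29) and 19 of 22 in LTKO fat (median −0.30), against 49.7% and 54.3% of all genes. The mean level of the macrophage markers was 7.27 in LDKO fat and 7.52 in the Irs1/2-flox control, and 7.06 in LTKO fat and 7.33 in the Irs1/2:FoxO1-flox control. Endothelial markers had medians of 0.033 and 0.00084, and stromal progenitor markers −0.19 and −0.12, for LDKO and LTKO fat. The part of these cells in the cell cycle values was not tested.

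Markers of muscle and mesothelium were highest in the Irs1/2-flox control array, and genes of germ cells, epididymis and liver were high in the LTKO array. Skeletal muscle markers averaged 5.24 in LDKO fat and 5.99 in the Irs1/2-flox control, and 5.02 in LTKO fat and 5.21 in the Irs1/2:FoxO1-flox control. Mesothelial markers averaged 6.69 in LDKO fat and 7.30 in the Irs1/2-flox control, and 6.89 in LTKO fat and 6.83 in the Irs1/2:FoxO1-flox control. In LTKO fat 9 of 21 germ cell genes, 7 of 14 epididymis genes and 10 of 14 liver genes were 1.5-fold higher than in the control, against 3.11% of all genes. The medians of these lists were 0.36 for germ cells, 0.74 for epididymis and 0.79 for liver in LTKO fat, and −0.035, −0.090 and 0.070 in LDKO fat. Adipocyte markers had medians of 0.075 in LDKO fat and −0.13 in LTKO fat, which are the signs of the mitotic members too. The 2 erythroid genes had medians of 0.28 in LDKO fat and −0.23 in LTKO fat. In LTKO fat they went opposite ways, with Slc4a1 at −0.62 and Tfrc at 0.17. The germ cell genes with the largest LTKO differences included Adam5 (3.06) and Tnp2 (2.39). The part of these genes' source in the cell cycle values was not tested.

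**Figure D4:**
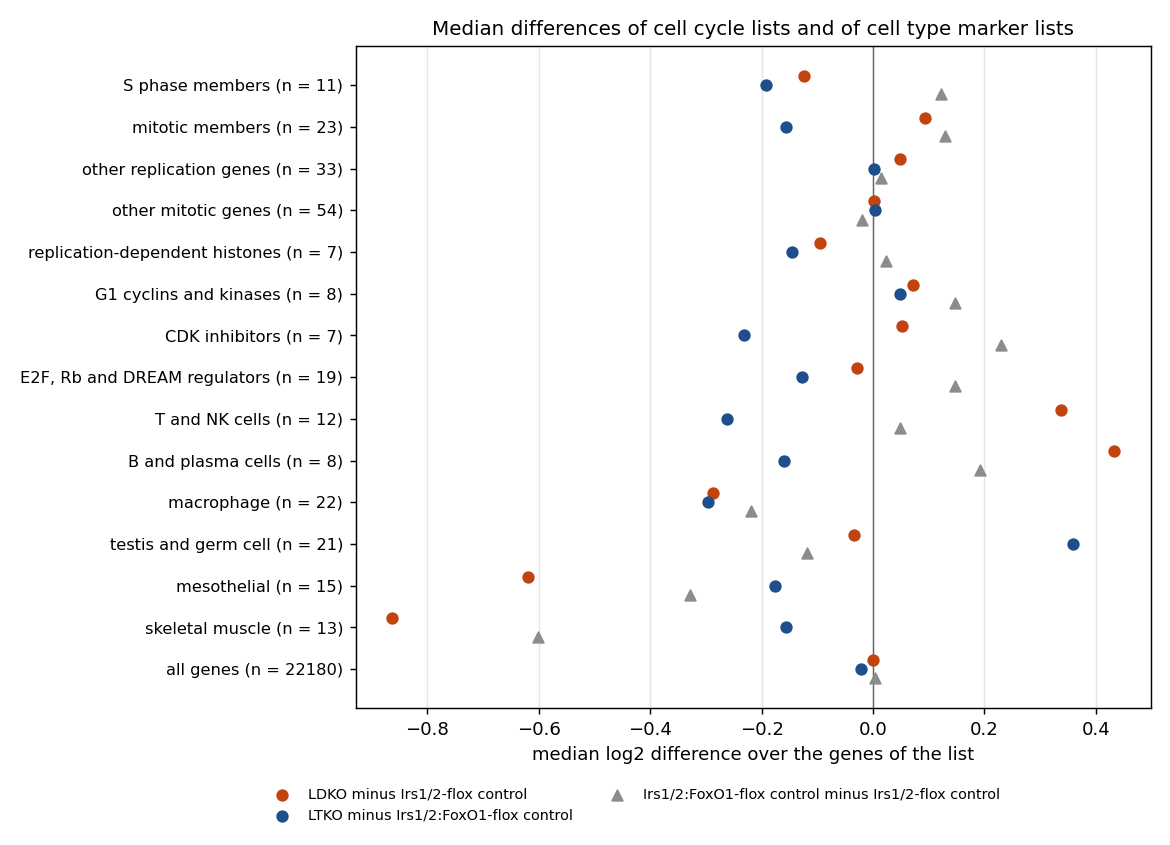
Median log2 difference of each gene list for LDKO fat and LTKO fat against their own controls (circles) and for the difference between the controls, Irs1/2:FoxO1-flox minus Irs1/2-flox (triangles), with the number of genes measured. The other mitotic and other replication genes lie within 0.05 of 0, and the mitotic members lie on the same side as the T, NK, B and plasma cell markers in both knockouts against their own controls, though not in LDKO fat against the other control, which is not drawn.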

How the data were processed

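For each probe set the deposited table gives a log2 signal in each of 4 arrays. Per the submitters' processing notes, the authors used RMA in Affymetrix Expression Console. Neither a version nor the set of arrays normalized together is given in the sources used here. RMA corrects the background, equalizes the distributions of the arrays and summarizes probes, so it removes a shift common to all genes and compresses differences of dim probes. The platform annotation pairs 23521 of 41345 probes with 1 symbol and 1814 with more than 1, and 16010 have no name here. RefSeq's GRCm38.p6 table held 23328 of the probes with 1 symbol, and old symbols were brought up to date with it. A gene was its brightest single-symbol probe, which gave 22180 genes. Rrm2 alone among the members had a second probe.

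Differences were taken between arrays, and genes were counted at 1.5-fold (0.58 on the log2 scale), with no filter on low values, over all measured members and over all genes. With 1 array per group no test was possible. The members and all gene lists were chosen with earlier results of these data known. All members may be named, and from other lists up to 4 genes with the largest difference in LDKO or LTKO fat. Foxm1 and Adipoq were named after their values were seen. The lists held 18 sets, with histones matched for 7 of 15 symbols. Alternatives were 2-fold, members at or above the median gene, the mean of all probes, a further quantile normalization, a loess curve (span 0.3) taken off each difference, the mean over members, leaving out the most different member, the other control and the mean of both controls. The steps were tested on simulated data. Analyses used Python 3.11.15 with numpy 2.4.6, pandas 2.3.3, statsmodels 0.14.6 and matplotlib 3.10.9.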

Additional observations from a re-analysis of the deposited data

Results flagged for a closer look

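The median of the mitotic members was on opposite sides in the knockouts, at 0.093 in LDKO fat and −0.16 in LTKO fat, each against its own control, a difference of −0.25. Cdkn1a was 1.5-fold apart in opposite directions, with −0.85 in LDKO fat and 0.60 in LTKO fat, a difference of effects of 1.46. Neither difference between the knockouts was tested, since each group has 1 array. With LTKO fat set directly against LDKO fat, Cdkn1a differed by 0.38 and the mitotic median was −0.14.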

How the results depend on the processing

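With the other control as reference, the medians in LDKO fat were −0.26 for the S phase members and −0.083 for the mitotic members, and those in LTKO fat were 0.055 for S phase and −0.022 for mitotic members. Under it 8 of 23 mitotic members were higher in LDKO fat, 13 of 23 were lower in LTKO fat, and 1 mitotic member, Bub1b, was 1.5-fold lower in LDKO fat. The LTKO median of the S phase members, −0.19, was also −0.022 against the mean of both controls, −0.090 over members at or above the median gene and −0.071 as a mean over members. The LDKO median of the mitotic members, 0.093, was 0.050 after the loess curve, 0.038 over members at or above the median gene and 0.033 against the mean of both controls, and their LTKO median, −0.16, was −0.086 against that mean. With LTKO fat set against LDKO fat the mitotic median, −0.14, was −0.077 after the loess curve, −0.075 over members at or above the median gene and −0.075 as a mean, and the S phase median, 0.14, was 0.22 over members at or above the median gene. In 49 of 56 settings a median moved by less than 0.1, which is more than the LDKO mitotic median itself. At a fold threshold 95 of 96 counts were 0 as reported. Many of these could not differ, since with a reported count of 0 the 2-fold threshold and the members at or above the median gene can only give 0. The mean of all probes could change no mitotic count or median, because Rrm2 alone has a second probe. Of 28 settings of the counts of direction, which were chosen after seeing the data, 26 stayed within 1.5-fold of the reported count. No paired analysis was possible because each group has 1 array. The dim signal of most members limits how small a difference these arrays can show, and no setting can separate genotype from animal or array.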
